A study of Mus musculus with 12 samples.

Results

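The expression of 38 genes of cholesterol synthesis, sterol transport and oxysterol binding was followed in mouse neural stem cells. The members were all gene probes whose gene name in the scanner files was one of the 38 symbols, whatever their level. They had 51 probes, 13 members with 2 probes and 25 with 1, out of 39429 probes for 31896 genes on the array. All 38 members were kept by the filter on dim probes, which left 24149 genes. The list was chosen by function, with earlier results of these data known. It falls into 5 roles. These are 7 genes of the mevalonate arm, 10 of the squalene and sterol arm, 6 regulators, 5 transport genes and 10 of the oxysterol-binding family.

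Cells build cholesterol from acetyl-CoA through mevalonate and squalene, and the enzymes of that route are transcribed under Srebf2 (SREBP-2) when sterols in the endoplasmic reticulum run low. Scap carries the SREBP precursors to the Golgi, and Insig1 and Insig2 hold Scap back when sterols are plentiful. Oxysterols, the oxidised products of cholesterol, bind the liver X receptors (Nr1h2 encodes the beta form), which raise the efflux pumps Abca1 and Abcg1 and the fatty acid regulator Srebf1. Proteins of the oxysterol-binding family move sterols and phosphoinositides between membranes. The developing brain makes its own cholesterol, because lipoproteins of the blood do not cross into it.

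The arrays were 12 in number, all 1-colour, with 3 for each of 4 groups. All cells were neural stem cells dissected from the mouse cerebral cortex at E12.5, and every group carried a stably transfected short hairpin RNA (shRNA). The control line carried a random shRNA, and the knockdown line carried an shRNA against JMJD3 (labelled "sh2 JMJD3"), the histone demethylase encoded by Kdm6b. Each line was given vehicle or 5 ng/ml of TGFb for 2.5 h. The labels name 1 shRNA for each line and do not say whether a line is a clone or a pool, nor whether replicates were grown apart. The p-values therefore cover only array-to-array spread, part of which could be technical.

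Levels are log2 of the background-corrected signal minus the 75th percentile of the array, so that a difference of 1 is a doubling, and levels of different probes are not compared. Groups were compared with limma over all 24149 genes, and a member was called changed where its p adjusted over all these genes was under 0.05. Kdm6b was lower in the knockdown line by 1.16 ± 0.05 (SE; adjusted p = 1.05e-07) with vehicle and by 1.40 ± 0.05 (adjusted p = 2.85e-08) with TGFb. The TGFb target Smad7 was higher with TGFb by 2.83 (control line) and 3.31 (knockdown line). Between 70.66% and 78.65% of spots were well above background, and no spot was saturated. The 11 tested neural stem cell markers summed to between 232 and 279 times the 75th percentile over the 12 arrays, and Nes, Sox2 and Pax6 were well above background on all 12. Markers of other cells were also measured. Of 7 microglial and blood markers 5 passed the filter, with Itgam, Csf1r, Cd68 and Ptprc well above background on all 12 arrays and Aif1 and Hbb-b1 on 0, and the 5 summed to 3.11 to 4.54. Of 7 endothelial and pericyte markers 5 passed, with Pecam1, Kdr, Tek and Cldn5 on all 12 arrays and Cdh5 on 0, and the 5 summed to 0.382 to 0.653.

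Promoter sequence is shown for 4 of the members that rose with TGFb and for Hmgcs1, whose promoter alone among those matched held a spelling of the sterol regulatory element. The 250 bases before the annotated start were taken from RefSeq promoters of build GRCm38.p6, in which 30 of the 38 members matched with 42 promoters. Capitals mark every match, on either strand, to 6 spellings, namely GGTNA and GGTCA with 5 unspecified bases between them (a direct repeat bound by liver X receptors, called DR4), TCACNCCAC (sterol regulatory element), a stricter spelling of it with A before TCACCCCAC, GTCTAGAC (Smad element), CACGTG (E-box) and CCAAT (NF-Y box). The DR4 letters were chosen wide enough to take in the known Abca1 element. Abca1 lies on the minus strand at chr4:53159896-53160145, the Srebf1 promoter shown on the minus strand at chr11:60210472-60210721, Osbpl2 on the plus strand at chr2:180119056-180119305, Osbpl3 on the minus strand at chr6:50456171-50456420 and Hmgcs1 on the plus strand at chr13:119690101-119690350.
Abca1: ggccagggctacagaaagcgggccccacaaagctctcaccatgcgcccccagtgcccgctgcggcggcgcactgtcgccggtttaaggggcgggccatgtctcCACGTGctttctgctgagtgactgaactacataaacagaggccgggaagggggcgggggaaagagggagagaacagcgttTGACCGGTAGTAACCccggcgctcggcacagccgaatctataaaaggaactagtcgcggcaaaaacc
Srebf1: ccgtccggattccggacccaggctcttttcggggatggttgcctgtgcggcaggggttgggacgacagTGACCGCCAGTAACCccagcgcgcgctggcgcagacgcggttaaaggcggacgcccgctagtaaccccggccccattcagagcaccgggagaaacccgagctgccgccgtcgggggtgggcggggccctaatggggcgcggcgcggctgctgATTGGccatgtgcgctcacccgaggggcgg
Osbpl2: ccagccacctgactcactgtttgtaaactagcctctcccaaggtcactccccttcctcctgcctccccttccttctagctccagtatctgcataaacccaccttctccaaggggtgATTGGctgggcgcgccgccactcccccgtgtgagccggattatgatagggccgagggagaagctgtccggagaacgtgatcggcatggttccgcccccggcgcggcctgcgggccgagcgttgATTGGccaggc
Osbpl3: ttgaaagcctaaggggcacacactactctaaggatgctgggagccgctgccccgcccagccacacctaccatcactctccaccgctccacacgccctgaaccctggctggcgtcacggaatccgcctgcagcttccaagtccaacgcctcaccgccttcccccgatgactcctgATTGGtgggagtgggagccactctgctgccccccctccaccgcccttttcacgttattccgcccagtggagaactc
Hmgcs1: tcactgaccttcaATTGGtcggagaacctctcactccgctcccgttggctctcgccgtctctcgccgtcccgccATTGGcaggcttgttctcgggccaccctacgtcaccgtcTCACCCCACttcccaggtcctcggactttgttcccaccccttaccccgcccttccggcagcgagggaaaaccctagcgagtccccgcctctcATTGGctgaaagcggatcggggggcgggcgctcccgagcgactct

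In Abca1 the capitals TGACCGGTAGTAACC lie at -67 to -53 from the start, and in Srebf1 TGACCGCCAGTAACC lies at -182 to -168, both being the repeat read on the opposite strand. No other member promoter held the DR4 letters, which were present in 0.177% of the 32851 promoters of the same length. Hmgcs1 held TCACCCCAC at -137 to -129, and 1.05% of all promoters held a match to TCACNCCAC. The stricter spelling was in 0 of the 42 member promoters and in 0.0731% of all. NF-Y box letters stood in 26 of the 42 member promoters (61.9%) and in 33.8% of all promoters. E-box letters stood in 8 of 42 (19%) and in 6.02% of all, and the Smad element in 0 of 42 and in 0.167% of all. These matches describe letters in the window and not binding.

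With TGFb in control cells, 6 of the 38 members were called and all 6 were higher. They were the efflux pumps Abca1 and Abcg1, the regulator Srebf1, and Osbpl1a, Osbpl2 and Osbpl3 of the oxysterol-binding family. Of all 24149 genes 10.1% were called in this comparison, 5.43% higher and 4.72% lower. The median change was 0.00 over the members and -0.01 over all genes. The arrays of both groups did not overlap for 12 of 38 members and for 22.1% of all genes.

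**Figure D1:**
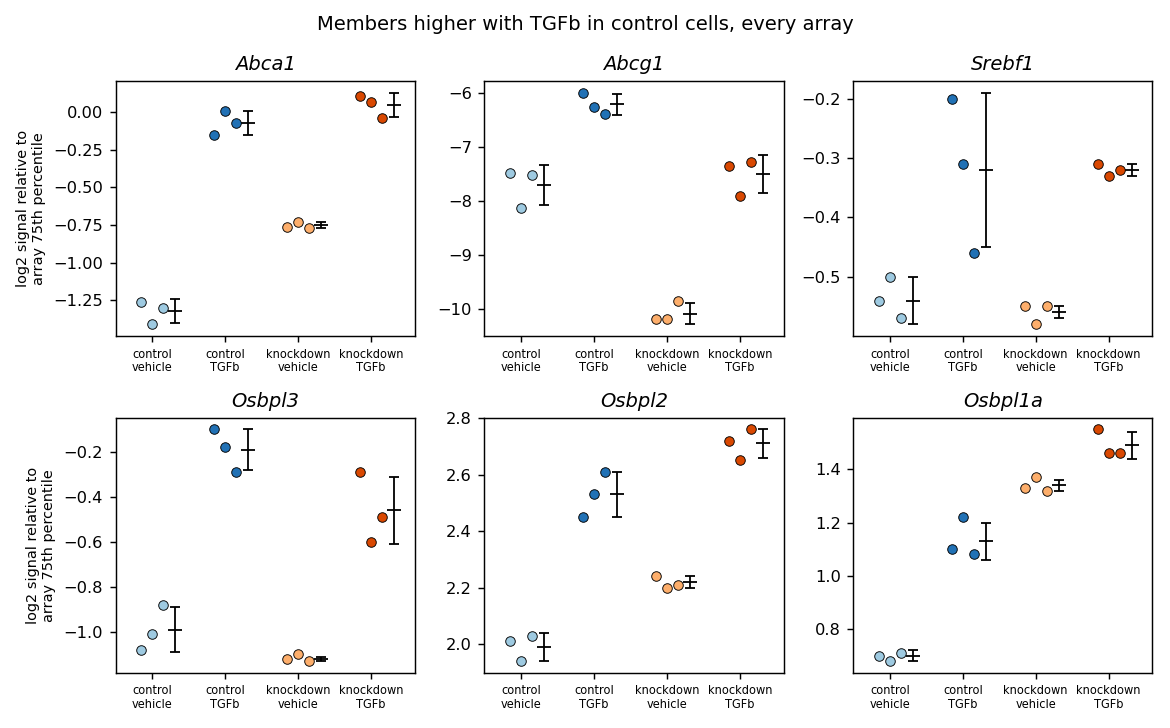
Level on each of the 12 arrays (y axis, log2 signal minus that array's 75th percentile) of the 6 members called higher with TGFb in control cells, by group (x axis), with the mean and SD of the 3 arrays beside the points. In each panel the 3 control arrays with TGFb lie above the 3 control arrays with vehicle. Each panel has its own y axis, which does not start at 0.

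Abca1, which loads cholesterol onto apolipoproteins outside the cell, stood at -1.26, -1.41 and -1.30 on the control arrays with vehicle and at -0.15, 0.01 and -0.07 with TGFb. In the knockdown line it stood at -0.76, -0.73 and -0.77 with vehicle and at 0.11, 0.07 and -0.04 with TGFb. Each TGFb array lay above every vehicle array of either line. The probe lies at chr4:53043944-53044003 on build mm9. The rise was 1.25 ± 0.06 (2.38-fold, adjusted p = 7.07e-08) in control cells and 0.80 ± 0.06 (1.74-fold, adjusted p = 3.78e-06) in knockdown cells. Within slides that held both groups it was 1.26 and 1.31 in control cells and 0.88 on the 1 such slide in knockdown cells.

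Abcg1, the pump that hands cholesterol to high-density lipoprotein, was close to background. Its probe lies at chr17:31252580-31252639 (mm9). Its processed signal was 22.8, 13.4 and 19.2 on the control arrays with vehicle, 54.9, 46.8 and 51.0 on those with TGFb, 3.55, 3.56 and 4.22 on the knockdown arrays with vehicle and 19.5, 16.2 and 28.8 on those with TGFb. The probe was well above background on 2 of the 3 control arrays with vehicle, on all 3 of each TGFb group and on 0 of the 3 knockdown arrays with vehicle. It passed the filter on dim probes through the TGFb groups, where it is high, so its calls with TGFb are no independent support. In control cells it was higher with TGFb by 1.49 ± 0.26 on the log2 scale (adjusted p = 0.00247), against a group in which 1 array was not well above background.

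In knockdown cells the size of the Abcg1 change is uncertain, since its vehicle arrays were not well above background. Each vehicle signal was raised to a floor, the dimmest signal of any probe well above background on its array. Abcg1 was then 1.72-fold higher with TGFb (adjusted p = 4.09e-05 by limma from the measured values, whose means were -7.51 and -10.09). This is not a lower bound, since the floor is not a detection limit for this probe. Control vehicle replicate 2 read 13.4, above its floor of 11.9, and was not well above background. With normexp background correction the log2 difference was 0.43 in control and 0.46 in knockdown cells, and in the authors' processed values 0.39 and 0.35, all still called. In knockdown cells both lie under the 0.78 on the log2 scale obtained with the floor, so the size depends on how background is removed. In the plot of Abcg1 signals the knockdown vehicle arrays are the only group whose points all lie below the marks.

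**Figure D2:**
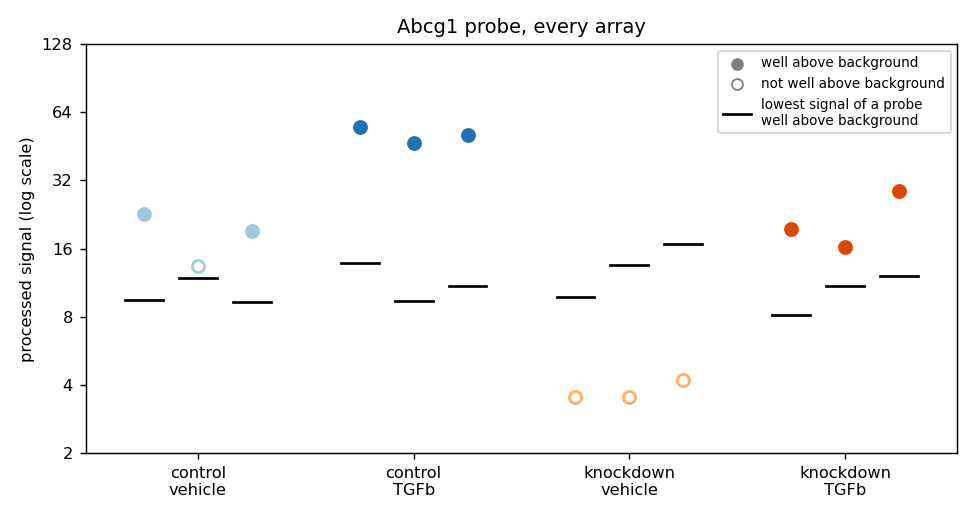
Processed signal of the Abcg1 probe on each array (y axis, log scale) by group (x axis, arrays in order of replicate number). Filled points show where the probe was well above background. A black mark shows the dimmest signal of any probe well above background on that array, which is not a detection limit for this probe. The knockdown arrays with vehicle lie between 3.55 and 4.22, below their marks at 9.83 to 16.8, and the other 9 arrays lie between 13.4 and 54.9.

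Among the regulators Srebf1, whose product drives fatty acid genes, moved by a small step. It stood at -0.54, -0.50 and -0.57 on the control arrays with vehicle and at -0.20, -0.31 and -0.46 with TGFb, which do not overlap. The knockdown values were -0.55, -0.58 and -0.55 with vehicle and -0.31, -0.33 and -0.32 with TGFb. The control line gave a rise of 0.21 ± 0.06 (adjusted p = 0.0394) and the knockdown line one of 0.24 ± 0.06 (adjusted p = 0.0219). The call in control cells was lost when any of 10 of the 12 arrays was left out (adjusted p up to 0.144), and in knockdown cells for 6 of 12 (up to 0.0803). Normexp correction, scaling to the array median and the authors' values each ended both calls.

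Osbpl3, Osbpl2 and Osbpl1a were the members of the oxysterol-binding family that rose in control cells, 3 of 10. Osbpl3 stood at -1.08, -1.01 and -0.88 with vehicle and at -0.10, -0.18 and -0.29 with TGFb in control cells, and at -1.12, -1.10 and -1.13 against -0.29, -0.60 and -0.49 in knockdown cells. No array with vehicle reached one with TGFb. It rose by 0.80 ± 0.08 (adjusted p = 3.52e-05) and by 0.66 ± 0.08 (adjusted p = 0.000204). Its other probe gave 0.78 and 0.70, both called.

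Osbpl2 stood at 2.01, 1.94 and 2.03 with vehicle and at 2.45, 2.53 and 2.61 with TGFb in control cells. In knockdown cells it stood at 2.24, 2.20 and 2.21 with vehicle and at 2.72, 2.65 and 2.76 with TGFb. The 4 groups are in separate steps, knockdown above control at each treatment. The rise was 0.54 ± 0.05 (1.46-fold, adjusted p = 1.46e-05) in control and 0.49 ± 0.05 (1.41-fold, adjusted p = 3.67e-05) in knockdown cells, and 0.51 within every slide that held both groups.

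Osbpl1a, whose long form binds Rab7 on late endosomes, stood at 0.70, 0.68 and 0.71 with vehicle and at 1.10, 1.22 and 1.08 with TGFb in control cells. It rose there by 0.44 ± 0.05 (adjusted p = 4.73e-05). In knockdown cells it stood at 1.33, 1.37 and 1.32 against 1.55, 1.46 and 1.46, a difference of 0.15 ± 0.05 that did not pass (adjusted p = 0.066). These values come from the brighter of its probes. The other, well above background on all 12 arrays, gave 0.05 in control and -0.10 in knockdown cells and was not called, and with the mean of both probes the rise in control cells was 0.24.

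None of the 17 genes of the synthesis route was called with TGFb in control cells by limma, with 3 at an unadjusted p under 0.05. Their changes ran from -0.14 for Mvk, mevalonate kinase, to 0.17 for Cyp51, the lanosterol demethylase, with a lowest adjusted p of 0.0791. The 95% intervals of the 17 genes together spanned -0.33 to 0.38. Of the regulators, Insig1 changed by 0.05, Insig2 by -0.04, Scap by -0.03, Nr1h2 by -0.01 and Srebf2 by -0.23 ± 0.14, and none of these passed. Srebf2 was unsteady on the control arrays with TGFb, which stood at 0.61, -0.04 and 0.24 against 0.44, 0.57 and 0.48 with vehicle.

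With TGFb in knockdown cells, 9 of the 38 members were called, 5 higher and 4 lower, where 9.49% of all genes were called (4.74% higher and 4.75% lower). The median change was -0.02 over the members and over all genes. Arrays did not overlap for 14 members and for 24.1% of all genes. All 5 that were higher (Abca1, Abcg1, Srebf1, Osbpl2 and Osbpl3) were also higher in control cells, which is 5 of the 6 there. The 4 that were lower were Mvk, Pmvk, Lss and Insig2.

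**Figure D3:**
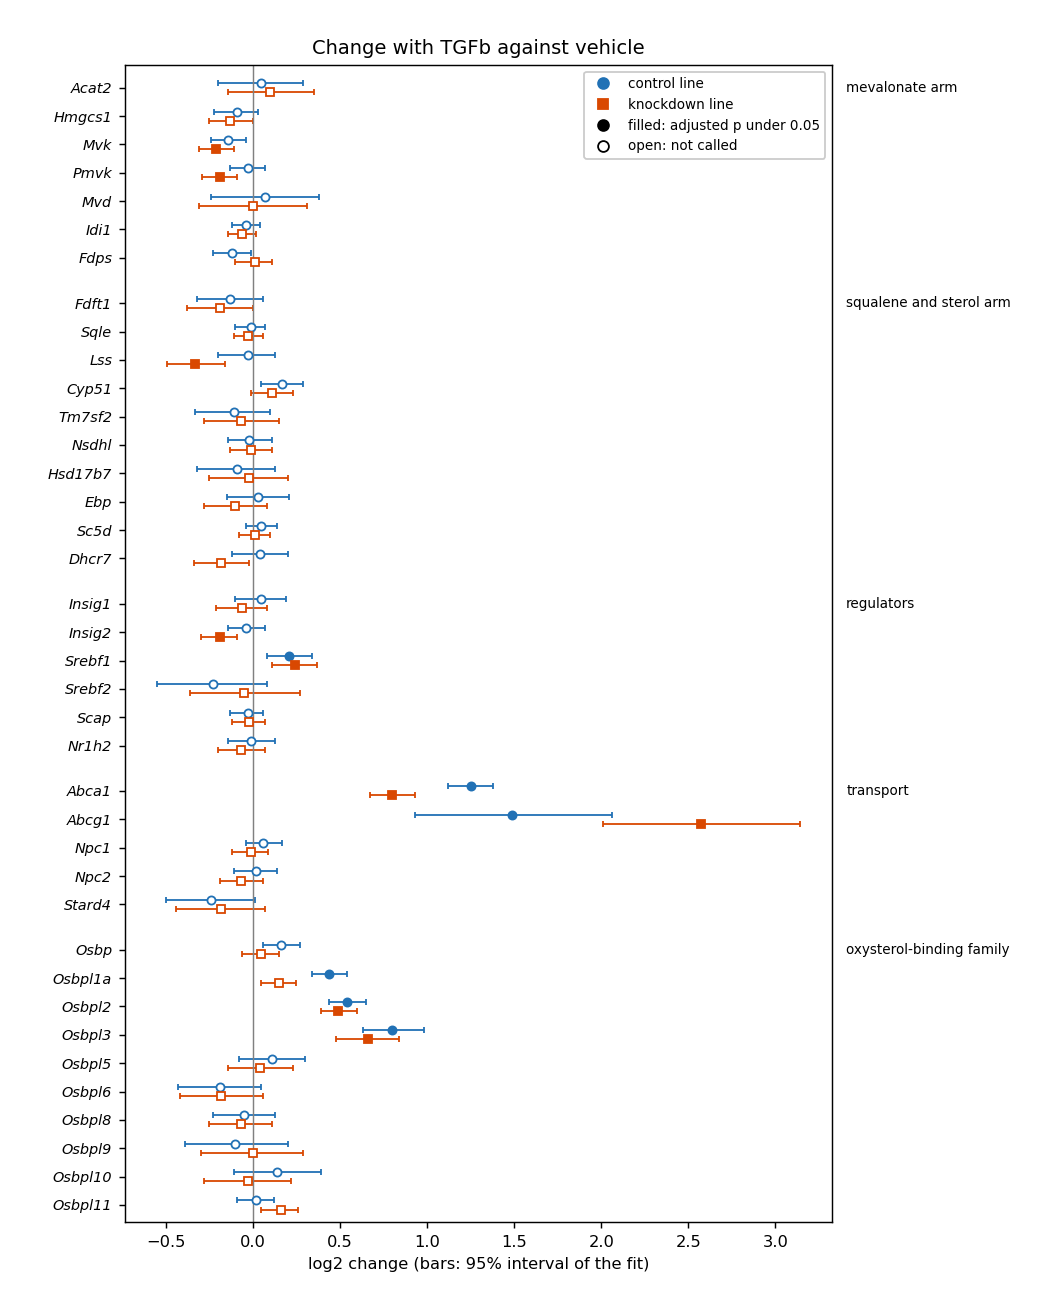
Log2 change with TGFb against vehicle (x axis) of all 38 members (y axis, by role) in the control line (circles) and the knockdown line (squares), with 95% intervals; filled symbols have an adjusted p under 0.05. In the upper 2 blocks, the synthesis enzymes, the changes lie between -0.33 and 0.17, while Abca1, Abcg1, Osbpl2 and Osbpl3 lie between 0.49 and 2.57 in both lines. The Abcg1 value in knockdown cells rests on vehicle arrays that were not well above background.

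Lss, lanosterol synthase, stood at 0.89, 1.05 and 1.01 on the knockdown arrays with vehicle and at 0.81, 0.60 and 0.55 with TGFb. It fell by 0.33 ± 0.08 (adjusted p = 0.0166), against -0.03 in control cells. Mvk stood at 4.45, 4.55 and 4.43 against 4.33, 4.23 and 4.25 and fell by 0.21 ± 0.05 (adjusted p = 0.0147). The arrays of both groups were separate for these 2 genes.

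Pmvk, phosphomevalonate kinase, stood at 4.16, 4.23 and 4.13 on the knockdown arrays with vehicle and at 4.05, 3.91 and 3.98 with TGFb, and fell by 0.19 ± 0.05 (adjusted p = 0.0215). Insig2, which retains Scap in the endoplasmic reticulum, stood at 0.64, 0.70 and 0.65 against 0.53, 0.43 and 0.44 and fell by 0.19 ± 0.05 (adjusted p = 0.0257). These falls are small, and each of the 4 genes lost its call when arrays were scaled to their median or when only the 2 groups were fitted. With the slide as a block Mvk, Pmvk and Insig2 were no longer called (adjusted p from 0.135 to 0.159) and Lss was (0.0455).

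The response to TGFb was then compared between the lines as a difference of differences, which uses the same 12 arrays as the comparisons above. No member was called by limma, where 0.0870% of all genes were (0.0456% higher and 0.0414% lower), and 6 members had an unadjusted p under 0.05. The rise of Abca1 was smaller in knockdown cells by 0.46 ± 0.08 (limma, 95% interval -0.64 to -0.27, adjusted p = 0.107). For Osbpl1a the difference was -0.29 ± 0.06 (adjusted p = 0.239), for Lss -0.30 ± 0.11 (adjusted p = 0.847), and for Pmvk and Insig2 -0.16 each (adjusted p = 0.964). Abcg1 gave 1.08 ± 0.36 (adjusted p = 0.758) from values below background in 1 group, and -0.04 in the setting that gave the lowest value.

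The Abca1 difference ran from -0.52 to -0.42 over 11 other settings, with adjusted p from 0.0283 with array weights to 0.821, and from -0.50 to -0.41 with each array left out. It was called with array weights and in none of the other settings. The knockdown line started from a higher Abca1 level with vehicle, as given below, and both lines reached overlapping levels with TGFb. The median difference of the responses was -0.05 over the members and 0.00 over all genes.

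In the knockdown line with vehicle, 13 members differed from the control line, 5 higher and 8 lower, where 27.8% of all genes did (12.51% higher and 15.33% lower). With TGFb 15 members differed, 3 higher and 12 lower, where 29.0% of all genes did (12.02% higher and 16.96% lower). The share of members called was 34.2% with vehicle and 39.5% with TGFb. Median changes were -0.03 and -0.09 over the members and -0.02 and -0.01 over all genes. Arrays did not overlap for 20 and 19 members, where 41.1% and 38.7% of all genes did not.

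Of the members, 10 were called the same way under both treatments, which is 10 of the 13 with vehicle and 10 of the 15 with TGFb. Tm7sf2, Osbpl1a and Osbpl2 were higher, and Idi1, Sqle, Hsd17b7, Ebp, Nr1h2, Abcg1 and Npc1 were lower. The synthesis route held 1 higher and 4 lower with vehicle, and 1 higher and 6 lower with TGFb, out of 17. The split of calls depends on the scaling with vehicle, where quantile normalization gave 7 higher and 5 lower, and scaling to the array median 3 and 3.

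**Figure D4:**
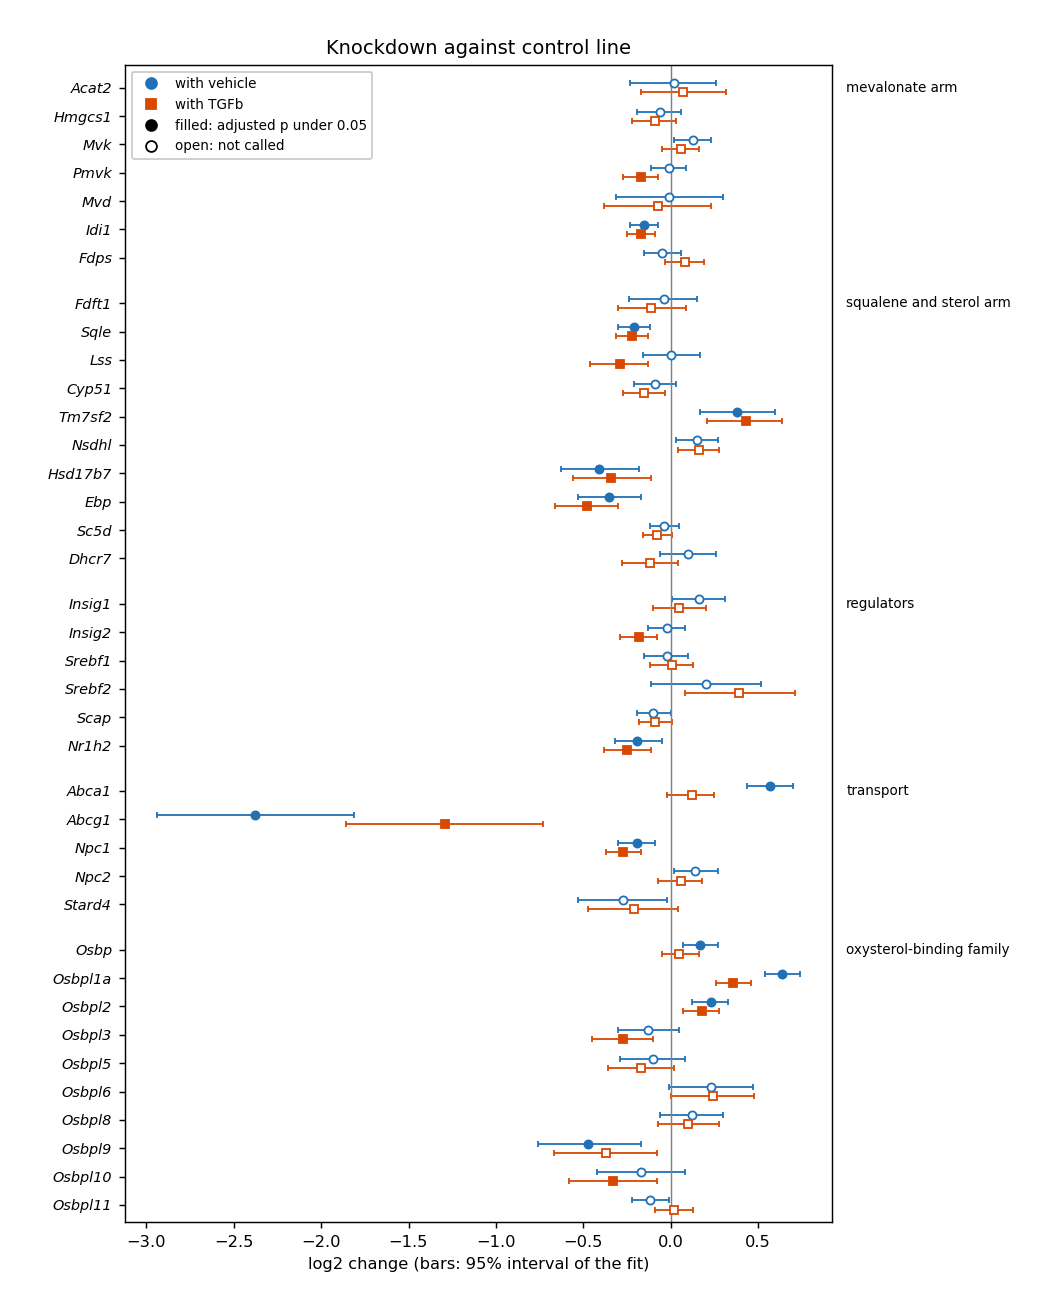
Log2 difference of the knockdown from the control line (x axis) of all 38 members (y axis, by role) with vehicle (circles) and with TGFb (squares), with 95% intervals; filled symbols have an adjusted p under 0.05. Ebp, Hsd17b7, Sqle and Npc1 lie to the left of 0 and Tm7sf2 and Osbpl1a to the right under both treatments, and Abca1 stands at 0.57 with vehicle and at 0.12 with TGFb. The Abcg1 value with vehicle rests on knockdown arrays that were not well above background.

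In the mevalonate arm Idi1, the isomerase that makes dimethylallyl diphosphate, was lower under both treatments. It stood at 4.79, 4.81 and 4.70 in control and 4.61, 4.62 and 4.62 in knockdown cells with vehicle, and at 4.72, 4.71 and 4.75 against 4.54, 4.56 and 4.57 with TGFb. The groups were separate at both treatments, with differences of -0.15 ± 0.04 (adjusted p = 0.0102) and -0.17 ± 0.04 (adjusted p = 0.00482). The call with vehicle was lost with normexp correction, array-median scaling, quantile normalization and the authors' values, where the difference was -0.01 (adjusted p = 0.916). With TGFb it was lost with array-median scaling and the authors' values. Pmvk was lower in the comparison with TGFb, by -0.17 ± 0.05 (adjusted p = 0.0154), against -0.01 with vehicle. That call was lost with array-median scaling, quantile normalization, the mean of its probes, the authors' values, only the groups compared, and without knockdown TGFb replicate 2 (adjusted p up to 0.115).

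In the squalene and sterol arm Ebp, the isomerase that shifts the sterol double bond, stood at 3.59, 3.76 and 3.71 in control and 3.22, 3.47 and 3.32 in knockdown cells with vehicle. With TGFb it stood at 3.78, 3.81 and 3.55 against 3.32, 3.18 and 3.22. All knockdown arrays lay below all control arrays. The differences were -0.35 ± 0.08 (adjusted p = 0.00797) and -0.48 ± 0.08 (adjusted p = 0.00113).

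Sqle, squalene epoxidase, stood at 5.40, 5.35 and 5.38 against 5.15, 5.20 and 5.17 with vehicle, and at 5.32, 5.43 and 5.35 against 5.12, 5.18 and 5.13 with TGFb. The groups were again separate, by -0.21 ± 0.04 (adjusted p = 0.00244) and -0.22 ± 0.04 (adjusted p = 0.0016). The call with vehicle was lost with array-median scaling, quantile normalization and the authors' values, down to -0.07. The call with TGFb was kept in all settings tried.

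Hsd17b7, which reduces the keto group of the sterol ring, stood at 0.55, 0.45 and 0.45 in control and 0.15, 0.06 and 0.01 in knockdown cells with vehicle. With TGFb it stood at 0.21, 0.37 and 0.58 against -0.14, 0.22 and 0.07, where the lowest control array falls just under the highest knockdown array. The differences were -0.41 ± 0.10 (adjusted p = 0.0107) and -0.34 ± 0.10 (adjusted p = 0.0272). The call with TGFb was lost with normexp correction, in the authors' values and with only the groups compared (adjusted p up to 0.228). It was also lost without control TGFb replicate 2 or 3 or knockdown TGFb replicate 1 or 3 (up to 0.0913). Its other probe was called lower by -0.59 and -0.38.

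Tm7sf2, a sterol reductase acting on the product of Cyp51, was the synthesis gene that was higher. It stood at 3.08, 3.05 and 2.96 against 3.27, 3.50 and 3.48 with vehicle, and at 3.09, 2.91 and 2.76 against 3.49, 3.18 and 3.37 with TGFb. The groups were separate, by 0.38 ± 0.10 (adjusted p = 0.0122) and 0.43 ± 0.10 (adjusted p = 0.00619), and its other probe gave 0.45 and 0.51, both called. Leaving out control vehicle replicate 3 ended the call with vehicle (adjusted p = 0.0523).

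Lss was lower in knockdown cells with TGFb, by -0.29 ± 0.08 (adjusted p = 0.0118), and differed by 0.00 with vehicle. That call was lost with array-median scaling and without knockdown TGFb replicate 3 (adjusted p = 0.0533 and 0.0555). Nsdhl, a sterol dehydrogenase, stood at 0.15 and 0.16 with adjusted p of 0.0683 and 0.0519, but its other probe gave -0.05 and -0.14.

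**Figure D5:**
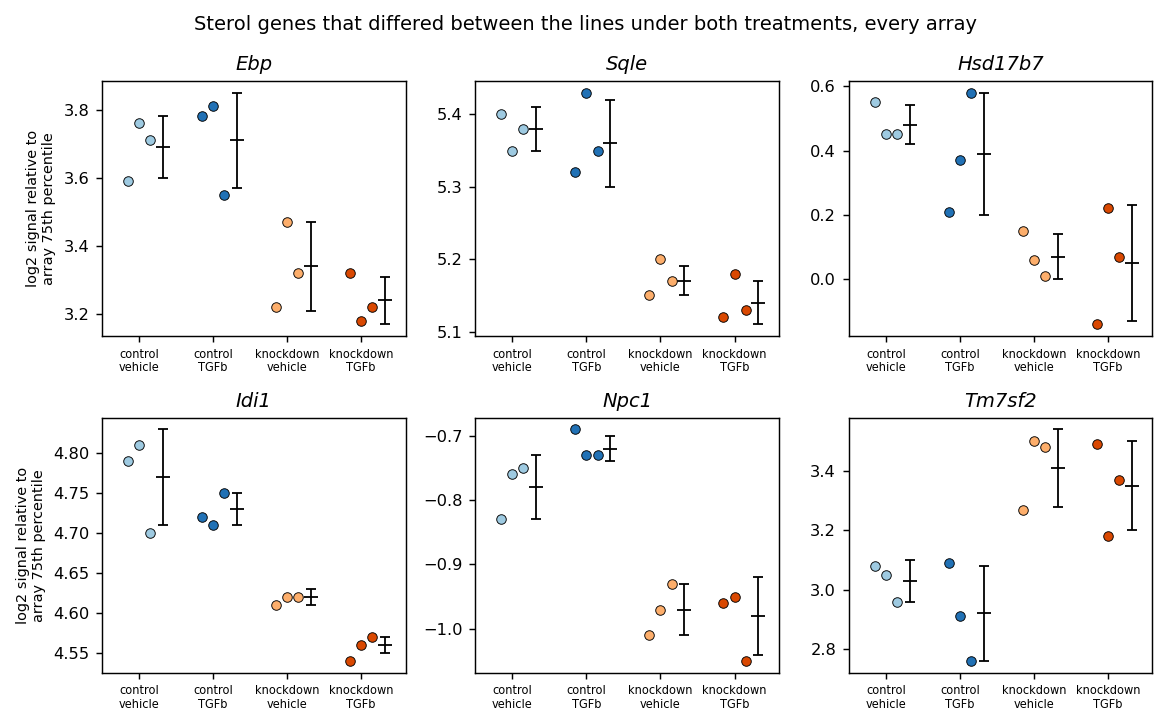
Level on each of the 12 arrays (y axis, log2 signal minus that array's 75th percentile) of the 5 synthesis genes called under both treatments and of Npc1, by group (x axis), with the mean and SD of the 3 arrays beside the points. The knockdown arrays lie below the control arrays of the same treatment for Ebp, Sqle, Idi1 and Npc1 and above them for Tm7sf2, and for Hsd17b7 they overlap with TGFb. Each panel has its own y axis, which does not start at 0.

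Among the regulators Nr1h2, the liver X receptor beta gene, was lower in the knockdown line. It stood at 2.57, 2.58 and 2.61 against 2.37, 2.45 and 2.39 with vehicle and at 2.64, 2.67 and 2.43 against 2.40, 2.28 and 2.32 with TGFb. No arrays overlapped, with differences of -0.19 ± 0.06 (adjusted p = 0.0434) and -0.25 ± 0.06 (adjusted p = 0.0109). The call with vehicle was lost on leaving out any of 8 of the 12 arrays (adjusted p up to 0.128), and that with TGFb on leaving out control TGFb replicate 2 (0.0511). Array-median scaling ended both calls.

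Insig2 was lower with TGFb by -0.18 ± 0.05 (adjusted p = 0.0147) and stood at -0.02 with vehicle. The call was lost with normexp correction, array-median scaling, the authors' values, only the groups compared, and without any of 4 arrays (adjusted p up to 0.143). Its other probe was called lower under both, by -0.26 (adjusted p = 0.00742) and -0.36 (adjusted p = 0.00101). Srebf1 (-0.02 and 0.01), Scap (-0.10 and -0.09), Insig1 (0.16 and 0.05) and Srebf2 (0.20 and 0.39 ± 0.14, adjusted p = 0.0637 with TGFb) were not called.

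Of the transport genes, Abca1 was higher in knockdown cells with vehicle by 0.57 ± 0.06 (1.49-fold, adjusted p = 3.49e-05), without overlap, and stood at 0.12 ± 0.06 with TGFb (adjusted p = 0.182). Abcg1 went the other way. With vehicle, and with the knockdown signals raised to the floor described above, it was 1.5-fold lower in knockdown cells (adjusted p = 4.56e-05 by limma from the measured values, with means of -10.09 and -7.71). This is not a lower bound, and 1 of the 3 control arrays was itself not well above background. The log2 difference was -0.37 with normexp correction and -0.30 in the authors' values, both called and both smaller in size than the 0.58 obtained with the floor. With TGFb, where all 6 arrays were well above background, it was lower by 1.29 ± 0.26 (2.45-fold, adjusted p = 0.0028), and by 0.34 with normexp correction and in the authors' values.

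Npc1, the late endosomal protein that exports cholesterol from the lysosome, stood at -0.83, -0.76 and -0.75 against -1.01, -0.97 and -0.93 with vehicle, and at -0.69, -0.73 and -0.73 against -0.96, -0.95 and -1.05 with TGFb. It was lower on every knockdown array, by -0.19 ± 0.05 (adjusted p = 0.01) and -0.27 ± 0.05 (adjusted p = 0.00128). The call with vehicle was lost with normexp correction, array-median scaling and the authors' values (adjusted p up to 0.176), and that with TGFb was kept in all settings tried. Its luminal partner Npc2 stood at 0.14 and 0.06, and the sterol carrier Stard4 at -0.27 ± 0.12 and -0.21 ± 0.12, and neither was called.

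In the oxysterol-binding family Osbpl1a was higher by 0.64 ± 0.05 with vehicle (adjusted p = 1.78e-06) and 0.36 ± 0.05 with TGFb (adjusted p = 0.000146), with no overlap. Its other probe gave 0.16 and 0.01, not called, and the mean of both gave 0.40 and 0.18. Osbpl2 was higher by 0.23 ± 0.05 (adjusted p = 0.00482) and 0.18 ± 0.05 (adjusted p = 0.0179). Array-median scaling ended both Osbpl2 calls, and the call with TGFb was also lost with normexp correction, the authors' values, only the groups compared, and without any of 3 arrays. Both were also higher with TGFb in control cells, a comparison that uses the same control vehicle arrays.

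Osbpl3 was lower in knockdown cells with TGFb by -0.27 ± 0.08 (adjusted p = 0.0249). That call was lost with array-median scaling, with only the groups compared, and without control TGFb replicate 1 or 2 or knockdown TGFb replicate 2 or 3 (adjusted p up to 0.103). Osbpl10 was lower there by -0.33 ± 0.11 (adjusted p = 0.0478), at -0.32, -0.37 and -0.57 in control and -0.69, -0.78 and -0.78 in knockdown cells, a call lost on leaving out any of 8 of the 12 arrays (adjusted p up to 0.138). With vehicle Osbp, the founding member of the family, was higher by 0.17 ± 0.05 (adjusted p = 0.0183), while its other probe gave -0.08, and normexp correction, array-median scaling, the mean of both probes, the authors' values, fitting only the groups compared and any of 4 left-out arrays ended the call. Osbpl9 was lower with vehicle by -0.47 ± 0.13 (adjusted p = 0.022), at -3.67, -3.60 and -3.64 against -4.36, -3.98 and -3.98, and stood at -0.37 ± 0.13 with TGFb (adjusted p = 0.0584). The Osbpl9 call was lost with normexp correction, array-median scaling and the authors' values, and without control vehicle replicate 2 or 3 or knockdown vehicle replicate 1 (adjusted p up to 0.088). For Osbpl6 the brighter probe gave 0.23 and 0.24 and was not called, and the other was called higher by 0.42 and 0.39.

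The 18 members called in no comparison were Acat2, Hmgcs1, Mvd, Fdps, Fdft1, Cyp51, Nsdhl, Sc5d, Dhcr7, Insig1, Srebf2, Scap, Npc2, Stard4, Osbpl5, Osbpl6, Osbpl8 and Osbpl11. They include Hmgcs1, the HMG-CoA synthase of the mevalonate arm. In control cells it stood between 6.23 and 6.24 with vehicle and between 6.02 and 6.2 with TGFb. In knockdown cells it stood between 6.16 and 6.17 with vehicle and between 5.95 and 6.13 with TGFb. Its intervals ran from -0.22 to 0.03 with TGFb in control cells and from -0.25 to 0 in knockdown cells. With knockdown they ran from -0.19 to 0.06 with vehicle and from -0.22 to 0.03 with TGFb. Dhcr7, the last reductase of the route, ran from -0.12 to 0.20, -0.34 to -0.02, -0.06 to 0.26 and -0.28 to 0.04 in the same order. With TGFb in knockdown cells the Dhcr7 interval lay below 0, but the change did not pass (limma, adjusted p = 0.191).

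Of 29 tested genes of the same pathways outside the list, 3 were higher and 2 lower with TGFb in control cells, and 2 and 4 in knockdown cells. Stard5, a sterol carrier, was higher by 0.33 and 0.38, and Osbpl7 of the oxysterol-binding family by 0.30 and 0.42, while Abcg4, a sterol pump, was lower by 0.35 and 0.38 and Gramd1b, which carries cholesterol from the plasma membrane, by 0.31 and 0.40. With knockdown 9 were higher and 3 lower with vehicle and 10 and 2 with TGFb. Of all 24149 genes, 10.1% and 9.49% were called with TGFb in control and knockdown cells. The shares with knockdown were 27.8% with vehicle and 29.0% with TGFb. Apoe, the main apolipoprotein of the brain, was higher in the knockdown line by 1.16 (adjusted p = 4.06e-06) and 1.11, and Abcg4 by 1.00 (adjusted p = 5.19e-06) and 0.96. Mylip, a ubiquitin ligase induced by liver X receptors, was higher by 0.47 and 0.36. With TGFb Mylip was lower in knockdown cells by 0.33 (adjusted p = 0.00618) and stood at -0.22 in control cells (adjusted p = 0.0529, not called). The part of liver X receptors in any of these changes was not tested.

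Of 15 fatty acid genes, 2 were higher with TGFb in control cells, namely Pnpla3 (0.72, adjusted p = 0.000649) and Gpam (0.21, adjusted p = 0.0379), and 1 in knockdown cells, Pnpla3 (0.68). Fasn and Scd1 stood at -0.01 and -0.07 in control cells and were not called. Whether Srebf1 acted on any gene of this list was not tested. In the knockdown line 4 were higher and 2 lower under both treatments. Shares of all genes called were 10.1% and 9.49% with TGFb in control and knockdown cells. They were 27.8% and 29.0% with knockdown under vehicle and TGFb. Thrsp was the farthest, at 0.85 under both.

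Markers of other cell types also differed between groups. The summed level of 8 oligodendrocyte markers was 48.0 to 51.6 on the control arrays with vehicle, 38.9 to 39.7 with TGFb, and 43.1 to 45.2 and 37.1 to 40.6 in knockdown cells. The 6 astrocyte markers summed to 58.9 to 67.9 on the control and 54.9 to 58.6 on the knockdown arrays with vehicle, and to 57.7 to 62.7 and 52.9 to 58.8 with TGFb. This sum rests mainly on Aldoc, at 5.9 on the log2 scale on the control arrays with vehicle, where the next marker, S100b, stood at 1.37. Within that list Gfap and Gja1 were called higher and Aldoc lower with knockdown and vehicle. With knockdown and TGFb Gfap and Gja1 were called higher, by 0.5 and 0.67, and 0 lower, with Aldoc at -0.13. Gfap alone was called with TGFb in either line, higher by 0.93 and 0.46. The 7 neuron markers summed to 13.4 to 15.2 and 14.8 to 15.9 with vehicle in the control and knockdown lines, and to 12.4 to 13 and 13.8 to 15.6 with TGFb. With knockdown 3 neuron markers were higher and 1 lower with vehicle, and 4 and 1 with TGFb. Of all genes 27.8% and 29.0% were called in these comparisons, and 10.1% and 9.49% with TGFb in control and knockdown cells. Elavl3 stood at 1.26 and 1.42, Dcx at 1.13 and 0.91, Syp at 0.49 and 0.69 and Rbfox3 at -1.28 under both. Of the 11 neural stem cell markers 4 were higher and 3 lower with vehicle, with Sox2 at 0.74, Slc1a3 at 0.68 and Nes at -0.33, and 3 and 2 with TGFb. Pdgfra, a marker of oligodendrocyte precursors and fibroblasts, was lower in the knockdown line by 1.97 and 1.79. It is 1 of 5 tested fibroblast and meninges markers. Of these 1 was higher (Foxc1, by 0.33) and 2 lower with knockdown and vehicle, and 0 and 1 with TGFb. The 5 summed to 3.59 to 4.02 in control and 4.23 to 4.8 in knockdown cells with vehicle. With TGFb they summed to 3.35 to 3.87 and 3.83 to 4.08. Col1a1 was higher with TGFb by 1.11 and 1.27 in the control and knockdown lines. In these bulk samples fewer cells of a type and less RNA per cell cannot be told apart, and the part of cell composition in the members' differences was not tested.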

How the data were processed

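For each of 12 samples, 500 ng of total RNA was amplified from an oligo-dT primer, labelled with Cy3 and put on a 1-colour Agilent mouse array, per the labels' protocols. The deposited scanner files give an intensity per spot on a linear scale, extracted by Agilent's Feature Extraction software (10.7.3.1), per the file headers. Positions of probes are on mm9. The processed signal is the software's background-corrected intensity, and its well-above-background marks (0 or 1) are the deposited values of another kind used here. The authors also deposited log2 values, whose 12 columns share a median of 7.932 and each match their own array best. How the authors corrected background and centred these values is not given here.

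The members and all gene lists were chosen with earlier results of these data known. Control spots and outlier spots were left out, spots of a probe were averaged, and each array's 75th percentile (3175 to 4462) was subtracted from its signals on the log2 scale. A probe stayed in if some group had it well above background on each of its 3 arrays, and a gene was represented by its kept probe of highest mean (24149 genes). Differences were fitted in R 4.3.3 by limma (3.58.1; a trended prior), with 1 mean per group, 8 residual and 3.11 prior degrees of freedom, two-sided, with Benjamini-Hochberg adjustment over all genes and a threshold of 0.05. The steps were tested on simulated data. Knockdown shares by direction are given to 4 digits. The 5 comparisons share groups. The values with a floor for Abcg1 set the brighter group's mean against the dim group's. Each dim signal was raised to the dimmest signal of any probe well above background on its array where it lay under it. The number of arrays limits the precision, with a median SE of 0.10 for a difference of groups. All 38 members could be named, and those called in a comparison were given with values. Of other genes, Kdm6b, Smad7 and genes of the lists with large changes were named, and the cell type markers, Fasn and Scd1 were chosen after their values were seen. Some genes of the lists are not reported here.

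The arrays lie on 4 slides scanned on 1 day. Slide 1 carried a vehicle array of both lines, slide 2 held 2 vehicle arrays and 1 control TGFb array, slide 3 held all 4 groups, and slide 4 held 3 TGFb arrays. Alternatives changed the background correction, the scaling, the filter, the probe rule, the values (the authors' own), the slide or replicate number as a block, array weights, the prior, the groups fitted, the threshold and the arrays included.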

Additional observations from a re-analysis of the deposited data

How the results depend on the processing

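Over 13 alternatives to each of the 43 called member changes, 457 of 555 values kept direction and call, 98 kept the direction and lost the call, and 0 reversed (Abcg1 was not tested where probes had to be above background on all arrays). Under all alternatives and with each array left out, 19 changes of 9 members were kept, namely Abca1, Abcg1, Osbpl2 and Osbpl3 with TGFb in both lines, Osbpl1a with TGFb in control cells, Abca1 with knockdown and vehicle, Abcg1, Ebp and Osbpl1a with knockdown under both treatments, and Npc1, Sqle and Tm7sf2 with knockdown and TGFb. For Abcg1 this covers only the 12 alternatives in which it was tested. Its calls with TGFb are no independent support, since its probe passed the filter through the TGFb groups, where it is high. The cause of the differences below was not tested.

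Counts of called members moved by over 1.5 times as follows. Scaling to the array median gave 4 (4 higher and 0 lower, against 5 and 4) with TGFb in knockdown cells, 6 (3 and 3, against 5 and 8) with knockdown and vehicle and 7 with knockdown and TGFb. A threshold of 0.01 also gave 4, 6 and 7. Array weights gave 14 with TGFb in knockdown cells and 1, Abca1, for the difference of responses. Fitting only the groups compared gave 5 with TGFb in knockdown cells and 9 with knockdown and TGFb, the authors' values gave 9 in the latter, and the slide as a block gave 20 with knockdown and vehicle. The split with TGFb in knockdown cells was 5 higher and 1 lower with the slide block, and with knockdown and vehicle 7 and 5 with quantile normalization and 5 and 4 in the authors' values. With each array left out the counts ran from 5 to 6 with TGFb in control cells, from 4 to 10 in knockdown cells, from 9 to 14 with knockdown and vehicle, from 9 to 18 with knockdown and TGFb, and stayed at 0 for the difference. The 4 came without knockdown vehicle replicate 2, knockdown TGFb replicate 2 or knockdown TGFb replicate 3, and the 9 with knockdown and TGFb without control TGFb replicate 2 or knockdown TGFb replicate 3.

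With the replicate number as a block, 5, 7, 12, 14 and 0 members were called in the 5 comparisons, against 6, 9, 13, 15 and 0 without it. The numbers do not pair the samples, since 4 of 18 same-numbered pairs of arrays had deviations correlated above 0.1 (r from -0.53 to 0.58) and 4 of 12 arrays matched their own number best. Arrays of 1 slide did deviate together (12 of 12 pairs above 0.1). With the slide as a block 40 of the 43 changes were still called. All 43 had the same sign within every slide that held both groups. Groups that do not overlap must give this result, and only Hsd17b7 with knockdown and TGFb had groups that overlapped. The signs are therefore no check on an effect of the slide. With TGFb in knockdown cells only 1 slide held both groups.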
